A study of Homo sapiens with 32 samples.

Results

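Chromatin loops were examined at 8 genes that direct kidney development: PAX2, PAX8, SIX2, LHX1, EYA1, WT1, GATA3 and SALL1. A loop was counted at a gene when at least 1 of its anchors, the 5 kb segments that it joins, overlapped the 50 kb on either side of the gene's 5′ end or lay inside the gene's body. By that rule 47 of 45629 loops in 4 lists belonged to these genes. The lists come from in situ Hi-C, in which DNA ends that neighbour each other inside fixed nuclei are ligated and sequenced, and the series asks how hyperosmotic stress alters such contacts. The cells were HEK293, an established human embryonic kidney line (the growth protocol writes HEK293T), either wild type or carrying eGFP-YAP, a green fluorescent fusion of YAP, a co-activator of transcription. In each line, untreated control cells were compared with cells given 200 mM sorbitol for 1 h. The design text has eGFP-YAP cells starved of serum for 1 h beforehand, and the labels do not say whether every group was. The labels name 3 wild-type and 4 eGFP-YAP replicates per condition. How eGFP-YAP was introduced, and whether the line is a single clone, is not given in the sources used here. Every condition is represented by 1 loop list without replicates, so conditions are described side by side with no test of their differences.

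The nephron, the filtering unit of the kidney, forms by exchange between the nephric duct with its ureteric bud and a pool of progenitor cells around the bud's tips, the cap mesenchyme. PAX2, PAX8, LHX1 and GATA3 act in the duct lineage, and EYA1, SIX2, SALL1 and WT1 act in the mesenchyme that becomes the nephron, where PAX2, PAX8 and LHX1 act again as tubules form. Genes of this kind often sit far from their neighbours and are controlled by distant enhancers, and loops whose anchors bind the protein CTCF can bring such elements near a gene or keep them apart. The lists record loops only. Whether the 8 genes were expressed in these cells was not analysed here, so a loop at a gene says nothing of its activity.

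CTCF binds an oriented core motif, and motif matches at the anchors the results turn on are shown first, to let the directions at the 2 sides of a loop be compared. Each is given 5′ to 3′ on the strand named, read from the hg38 reference, with the 14 bases of the match in capitals and 15 flanking bases on each side. The 2 matches at SIX2 lie outside annotated genes, on opposite strands. The matches in introns of SRBD1 and CAMKMT lie at the far ends of other SIX2 loops, which leave from nearby bins.
SIX2 anchor of loops towards SRBD1, plus strand, no mismatch, chr2:44981767-44981810: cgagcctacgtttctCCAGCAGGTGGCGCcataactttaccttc
SRBD1 intron, minus strand, 1 mismatch, chr2:45494857-45494900: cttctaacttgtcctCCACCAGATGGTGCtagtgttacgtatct
SIX2 anchor of loops past SIX3, minus strand, 1 mismatch, chr2:44972567-44972610: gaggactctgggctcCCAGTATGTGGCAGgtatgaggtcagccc
CAMKMT intron, plus strand, no mismatch, chr2:44392526-44392569: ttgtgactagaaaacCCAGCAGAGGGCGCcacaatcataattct

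Matches at 3 other genes are shown because they lie at the far end of 3 of the 5 SALL1 loops, at both ends of a PAX2 loop and at the GATA3 end of the longest member. The SALL1 partner lies in an intron of the non-coding gene LINC01571, the first PAX2 match in an intron of PAX2 itself, and the others outside annotated genes.
SALL1 partner, minus strand, no mismatch, chr16:51762270-51762313: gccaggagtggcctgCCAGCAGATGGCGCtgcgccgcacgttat
PAX2 intron, minus strand, 1 mismatch, chr10:100743748-100743791: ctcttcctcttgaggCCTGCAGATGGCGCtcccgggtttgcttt
PAX2 downstream, minus strand, 1 mismatch, chr10:100872418-100872461: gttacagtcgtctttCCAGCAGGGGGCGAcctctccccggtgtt
GATA3 upstream, minus strand, 1 mismatch, chr10:8037772-8037815: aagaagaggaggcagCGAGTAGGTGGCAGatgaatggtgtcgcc

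The last set belongs to a loop that encloses LHX1 without touching it, chosen after its values were seen. Its left anchor, outside annotated genes, holds 2 plus-strand matches and its right anchor, in AATF, holds 1 minus-strand match.
LHX1 left, plus strand, 1 mismatch, chr17:36626043-36626086: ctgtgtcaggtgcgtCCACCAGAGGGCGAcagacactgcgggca
LHX1 left, plus strand, 1 mismatch, chr17:36629434-36629477: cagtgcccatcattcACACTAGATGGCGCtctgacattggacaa
LHX1 right, minus strand, 1 mismatch, chr17:37047812-37047855: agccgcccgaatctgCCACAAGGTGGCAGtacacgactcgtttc

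The 8 genes held 17 loops in the wild-type control list and 6 in the wild-type sorbitol list. In eGFP-YAP cells they held 22 loops in control and 2 with sorbitol. Counting error alone gives exact Poisson 95% intervals of 9.90 to 27.2, 2.20 to 13.1, 13.8 to 33.3 and 0.242 to 7.22 loops. All intervals here cover counting error over loops or anchors, and are too narrow where loops near each other depend on each other. Sorbitol loops divided by control loops gave 0.353 (exact interval 0.114 to 0.938) in wild type, where the whole lists gave 0.389. In eGFP-YAP the quotient was 0.0909 (0.0104 to 0.370), where the whole lists gave 0.294. Both whole-list ratios lay inside the intervals for these genes, so the fewer loops at kidney regulators with sorbitol were not distinguishable from the shorter sorbitol lists. As a share of each list the genes took 0.112% (Wilson interval 0.0699 to 0.179) of wild-type control, 0.102% (0.0466 to 0.221) of wild-type sorbitol, 0.116% (0.0766 to 0.176) of eGFP-YAP control and 0.0359% (0.00984 to 0.131) of eGFP-YAP sorbitol loops. The sequencing depth behind the lists is unknown.

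**Figure D1:**
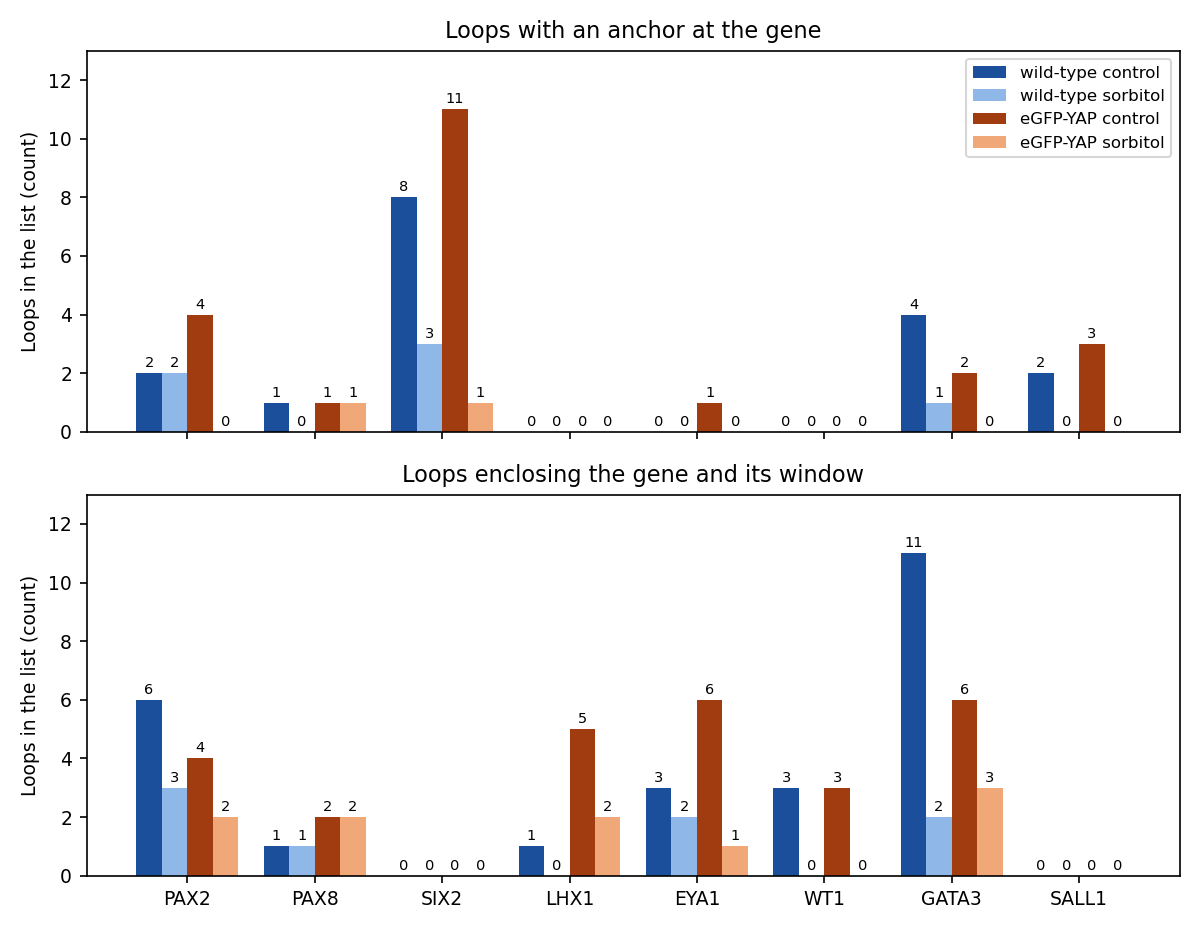
Number of loops per list (y axis, count) for each of the 8 genes (x axis), with 1 bar per list and the count printed above it. The upper panel shows loops with an anchor at the gene, where SIX2 has 8, 3, 11 and 1 and LHX1 and WT1 have 0 throughout, and the lower panel shows loops that enclose the gene and its window.

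Spread over the genes, the loops were uneven. SIX2 alone held 23 of the 47, or 48.9%, and LHX1 and WT1 held 0 in every list. Of all 19970 protein-coding genes, 1956, or 9.79%, had no loop in any list, and no trait of kidney regulators is read from these 2 genes. At least 1 loop was present at 5 of the 8 genes in wild-type control, 3 in wild-type sorbitol, 6 in eGFP-YAP control and 2 in eGFP-YAP sorbitol. Under the same rule the shares of all 19970 protein-coding genes with at least 1 loop were 72.8%, 51.9%, 81.9% and 54.2% in the same order, so the kidney regulators as a group were not rich in loops. A protein-coding gene had a median of 6 loops over the 4 lists. Only 1.66% of protein-coding genes had as many as SIX2, most of whose loops also count at its neighbour SIX3. PAX2, with 8 loops, and GATA3, with 7, lay near the middle of that range, with 38.3% and 45.1% of protein-coding genes holding as many or more. SALL1 had 5 loops (60.3%), PAX8 had 3 (76.1%) and EYA1 had 1 (90.2%).

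The members' loops were next matched between conditions, a match being a loop on the same chromosome with both anchor centres within 10 kb. In wild type the sorbitol list repeated 1 of 17 control loops, 5.88% (1.05 to 27.0), beside 7.81% of the whole control list called again. That loop joined SIX2 to a site short of SRBD1. In eGFP-YAP it repeated 1 of 22, 4.55% (0.807 to 21.8), beside 9.28%, and it joined SIX2 to SRBD1 itself. Seen from the sorbitol side, 5 of 6 wild-type loops had no control partner, 83.3% (43.6 to 97.0) beside 79.9%, and 1 of 2 eGFP-YAP loops had none, 50% (9.45 to 90.5) beside 68.4%. Between the control lists of the lines, 7 of 17 wild-type loops were present in eGFP-YAP, 41.2% (21.6 to 64.0) beside 40.2%, and 7 of 22 eGFP-YAP loops in wild type, 31.8% (16.4 to 52.7) beside 32.2%. All 6 shares lay close enough to those of the whole lists that their intervals contain them. The lists of the lines also carry different source names, so cell line and source cannot be told apart.

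Loops of different lists that matched directly or through a chain of matches at the same gene were joined into 36 groups. Among loops counted at the genes, 30 of these groups were found in 1 list, 16 of them in eGFP-YAP control, 11 in wild-type control and 3 in wild-type sorbitol. Of the 30, 2 SIX2 loops past SIX3, 1 in each control list, did match a loop of the other control list whose anchor lay just outside the window. The other 6 groups were found in 2 or 3 lists, and 0 in all 4. Through such groups 5 of the 8 sorbitol loops were linked to a control loop of either line. Shares of such groups over the whole lists were not computed, so no trait of these genes is read from the group counts. The groups in several lists were 2 at PAX2, 2 at SIX2, 1 at PAX8 and 1 at SALL1.

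Among the regulators of the mesenchyme, SIX2, a homeobox transcription factor that keeps nephron progenitors undifferentiated, was the richest in loops. The gene (ENSG00000170577.8) lies at chr2:45005182-45009452 on the minus strand of hg38, and its closest protein-coding neighbour is SIX3, a homeobox gene of forebrain and eye development whose start is 67.8 kb away. SIX2 had 8 loops in wild-type control, 3 in wild-type sorbitol, 11 in eGFP-YAP control and 1 in eGFP-YAP sorbitol. These loops ran in opposite directions from separate anchors. Towards higher coordinates, away from SIX3, ran 16 loops, 7 of them in wild-type control, 3 in wild-type sorbitol, 5 in eGFP-YAP control and 1 in eGFP-YAP sorbitol. Their anchors at SIX2 lay between chr2:44975001 and 45015000. Towards lower coordinates, past SIX3, ran 7 loops, 1 in wild-type control and 6 in eGFP-YAP control, with anchors between chr2:44955001 and 44975000.

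The loops on the SIX2 side and those on the SIX3 side thus met at position 44975000 without overlapping. The 7, 3, 12 and 2 loops at SIX3 by the same rule were largely the same loops as those at SIX2, and do not count as separate evidence. No loop of any list had anchors on both sides of position 44975000. This is a description of a border that the loops themselves define, and 24.1% of all borders between 5 kb bins were crossed by no loop of the 4 lists. The 7 loops past SIX3 all had anchors nearer to the SIX3 start than to that of SIX2, and belong to SIX2 only by the 50 kb rule. The 2 starts are 67.8 kb apart, so their 50 kb windows overlap. Loops with near anchors between chr2:44955001 and 44990000 therefore also count at SIX3, among them outward loops and every sorbitol loop of SIX2. The plus-strand motif shown for SIX2 lies 27.7 kb beyond its start in the direction of transcription, in the anchor chr2:44980001-44985000 that 6 of the 16 outward loops used, and points towards SRBD1. The minus-strand motif lies 36.9 kb beyond the start, in the anchor chr2:44970001-44975000 of 2 of the 7 loops past SIX3, and points towards CAMKMT. The motifs in SRBD1 and CAMKMT point back, although no single SIX2 loop held a motif in both of its anchors.

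**Figure D2:**
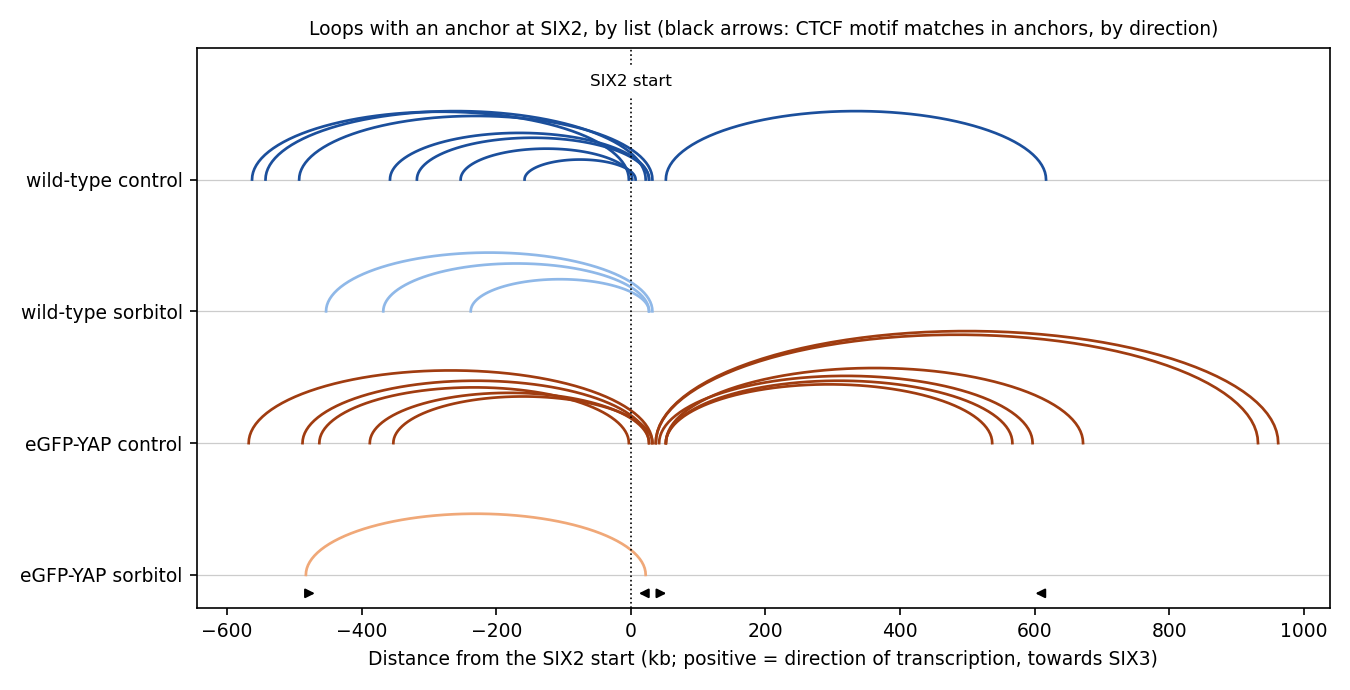
Loops with an anchor at SIX2, drawn as arcs between anchor centres for each of the 4 lists (rows), against distance from the SIX2 start in kb (x axis, positive in the direction of transcription and towards SIX3); arc height is proportional to span, and black arrows mark CTCF motif matches and their direction. The 16 arcs away from SIX3 and the 7 arcs past SIX3 leave from adjoining positions and none spans both sides.

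The SIX2 loop with the highest score joined the region downstream of the gene to SRBD1, a gene for an RNA-binding domain protein, and was present in 3 lists. The caller's peak score has no fixed scale, so each loop is also ranked by its percentile within its own list. The loop ran from chr2:44975001-44980000 to chr2:45500001-45505000 in wild-type control, with a score of 4.53 at percentile 94.3. In eGFP-YAP control it ran from chr2:44980001-44985000 to chr2:45495001-45500000, with a score of 9.24 at percentile 98.6. With sorbitol in eGFP-YAP it ran from chr2:44985001-44990000 to chr2:45490001-45495000, with a score of 4.78 at percentile 89.9. Its spans were 525, 515 and 505 kb, and it was not in the wild-type sorbitol list. It was the only SIX2 loop called in eGFP-YAP cells with sorbitol.

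A second SIX2 loop in 3 lists was shorter and ended outside genes, 234.7 to 249.7 kb from the SRBD1 start. It spanned 385 kb in wild-type control (percentile 45.4), 395 kb in wild-type sorbitol (10.0) and 385 kb in eGFP-YAP control (42.6). Only wild-type sorbitol held 2 further SIX2 loops without a partner in any control list, a 485 kb loop into SRBD1 at percentile 37.2 and a 265 kb loop into the non-coding gene LINC01121 at percentile 20.3. All 3 wild-type sorbitol loops of SIX2 therefore ran away from SIX3, from the pair of bins between chr2:44975001 and 44985000. In all, 9 of the 16 outward loops ended within SRBD1.

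Of the loops past SIX3, 4 of 7 ended in CAMKMT, which encodes a calmodulin methyltransferase. The highest percentile, 96.0, belonged to a 565 kb loop of wild-type control from chr2:44955001-44960000 to the CAMKMT intron that holds the plus-strand motif, chr2:44390001-44395000. In eGFP-YAP control a 485 kb loop from the same SIX2-side bin into CAMKMT stood at percentile 89.6. The longest SIX2 loops, 925 and 895 kb in eGFP-YAP control, ended outside genes, with LRPPRC as the nearest start at 51.3 and 81.3 kb. The window's edge matters here: 4 loops past SIX3 had their near anchor 4.45 kb outside it, at chr2:44950001-44955000. They stood at percentiles 91.2 and 79.6 in wild-type control, 93.5 in eGFP-YAP control and 76.3 in eGFP-YAP sorbitol. So the lack of members past SIX3 in eGFP-YAP sorbitol rests on the 50 kb limit, and in the wild-type sorbitol list no loop lay that close outside. Anchors just inside the limit, at chr2:44955001-44960000, belonged to loops of percentiles 16.9 to 96.0.

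The start of SIX2 itself lay in the anchor of 1 loop, a 255 kb loop of wild-type control into LINC01121 at percentile 0.115, the lowest of all members. A 165 kb loop of wild-type control, anchored 6.95 kb from the start and also ending in LINC01121, stood at percentile 66.0. Bins just upstream of the start, at chr2:45010001-45015000, were joined to SRBD1 in both control lists, over 560 kb in wild type (percentile 72.9) and 460 kb in eGFP-YAP (33.6). The remaining outward loops spanned 345 to 600 kb at percentiles 4.75 to 64.8.

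SALL1, a zinc-finger transcription factor of the nephron progenitors, had distant partners in the control lists and no loop with sorbitol. The gene (ENSG00000103449.13) lies at chr16:51135982-51152334 on the minus strand, and the nearest other protein-coding start, that of HNRNPA1L3, is 401 kb away. It had 2 loops in wild-type control, 3 in eGFP-YAP control and 0 in either sorbitol list. The loop shared by the controls ended in the bin chr16:51760001-51765000, in LINC01571, over 610 kb in wild type (score 3.36, percentile 74.5) and 615 kb in eGFP-YAP (score 4.04, percentile 64.1). Its wild-type anchor, chr16:51150001-51155000, held the SALL1 start. The LINC01571 bin holds the exact minus-strand CTCF match shown above, which points towards SALL1, while the SALL1 anchors held no match within 1 mismatch. A 580 kb eGFP-YAP control loop to the same bin, from 30.2 kb upstream of the start, stood at percentile 30.6. The longest reached 830 kb in eGFP-YAP control (percentile 75.6) and ended outside annotated genes. In wild-type control the start was also joined to HNRNPA1L3 over 475 kb (percentile 27.1). With sorbitol, the anchor of any loop nearest to the SALL1 start was 270.2 kb away in wild type and 359.8 kb away in eGFP-YAP, against 0.166 and 4.83 kb in the controls. The sorbitol lists are shorter (whole-list ratios 0.389 and 0.294), and such distances were not computed for all genes. No change particular to SALL1 is read from them.

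EYA1, a phosphatase that acts as co-activator of SIX2, had a single loop. It is the largest of the genes, with a body of 395 kb at chr8:71197433-71592025 on the minus strand (ENSG00000104313.20). The loop, in eGFP-YAP control, spanned 240 kb at percentile 18.9, from 10.5 kb upstream of the EYA1 start to a site inside the gene, so that both anchors lay in the window. Loops that enclosed the gene with its window were more frequent, with 3 in wild-type control, 2 in wild-type sorbitol, 6 in eGFP-YAP control and 1 in eGFP-YAP sorbitol. An anchor of 1 of the 6 lay 7.98 kb outside the window. A group of these, 965 to 975 kb long, was present in 3 lists, at percentiles 95.0 in wild-type control, 68.6 in wild-type sorbitol and 97.9 in eGFP-YAP control. Its anchors lay upstream, at -220.5 to -215.5 kb from the start, and 749.5 to 754.5 kb downstream, beyond the gene's far end.

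WT1, a zinc-finger regulator of the mesenchyme and of podocytes that is named for Wilms tumour, had 0 loops in all 4 lists. The gene (ENSG00000184937.16) lies at chr11:32387775-32435564 on the minus strand. The nearest loop anchor was 98.1 kb from its start in wild-type control, 263.1 kb in wild-type sorbitol, 113.1 kb in eGFP-YAP control and 243.1 kb in eGFP-YAP sorbitol. Enclosing loops numbered 3 in each control list and 0 in each sorbitol list. In wild-type control they spanned 235, 290 and 345 kb at percentiles 8.80, 9.68 and 18.3. In eGFP-YAP control they spanned 265, 380 and 475 kb at percentiles 20.4, 25.6 and 72.2, and all 3 shared the anchor chr11:32320001-32325000. None of the wild-type loops matched an eGFP-YAP loop within 10 kb.

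Of the duct regulators, the paired-box gene PAX2 had 2 loops in wild-type control, 2 in wild-type sorbitol, 4 in eGFP-YAP control and 0 in eGFP-YAP sorbitol. It lies at chr10:100735396-100829944 on the plus strand (ENSG00000075891.24). Wild-type PAX2 thus had as many loops with sorbitol as in control, although the anchors lay too far apart to match within 10 kb. Where a line had a control loop at a gene, equal counts otherwise occurred only for PAX8 in eGFP-YAP cells. The loops fell into an upstream and a downstream set. The upstream loop in 3 lists joined the start of PAX2, or bins up to 12.1 kb into the gene, to a region upstream, at -182.9 to -162.9 kb from the start. It spanned 175 kb in wild-type control (percentile 18.1), 185 kb in wild-type sorbitol (22.6) and 175 kb in eGFP-YAP control (44.2). In wild-type sorbitol the far anchor lay in HIF1AN, the gene of an asparagine hydroxylase that acts on the hypoxia factor HIF1A, and in the controls it lay outside genes, 42.5 and 32.5 kb from the NDUFB8 start. The anchor at chr10:100735001-100740000, which holds the PAX2 start, was used in wild-type sorbitol and in eGFP-YAP control.

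The downstream PAX2 loop in 3 lists joined a site 17.9 to 32.9 kb upstream of the start to a site 132.1 to 147.1 kb beyond it, past the end of the gene and towards SLF2. It spanned 165 kb in wild-type control (percentile 2.36), 165 kb in wild-type sorbitol (20.3) and 170 kb in eGFP-YAP control (29.0). In eGFP-YAP control a 130 kb loop from inside the gene to the same downstream region stood at percentile 45.4, and a 210 kb loop to HIF1AN at 23.2. Every PAX2 loop was in the lower 50% of its list by score. The 130 kb loop was the only one of the 47 with a motif match in both anchors, and its matches, 2 in the PAX2 intron and 1 downstream, were all on the minus strand, so they do not face each other. That reading depends on the anchor's edge. A plus-strand match with 1 mismatch, at chr10:100745115-100745128 in the adjoining bin, does face the downstream match.

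PAX8, the paired-box relative that acts with PAX2, had 1 loop in wild-type control, 0 in wild-type sorbitol, 1 in eGFP-YAP control and 1 in eGFP-YAP sorbitol. The gene (ENSG00000125618.18) occupies chr2:113215997-113278921 on the minus strand. All 3 loops joined a site inside PAX8, which also lies in the antisense gene PAX8-AS1, to the non-coding gene LINC02966 upstream. In wild-type control the loop ran from chr2:113245001-113250000 to chr2:113370001-113375000 over 125 kb, with a score of 5.33 at percentile 98.0. In eGFP-YAP control it used the same PAX8 bin and spanned 120 kb, with a score of 4.31 at percentile 69.6. In eGFP-YAP sorbitol it spanned 145 kb, with each anchor farther out, and had a score of 3.98 at percentile 81.1. The sorbitol loop matched the wild-type control loop within 10 kb but not that of its own line, whose far anchor was more than 10 kb away. Wild-type sorbitol, with 0 loops at PAX8, did hold a loop around the gene: a 250 kb loop at percentile 87.1 that matched one of 255 kb in wild-type control (97.9) and one of 245 kb in eGFP-YAP sorbitol (81.2).

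**Figure D3:**
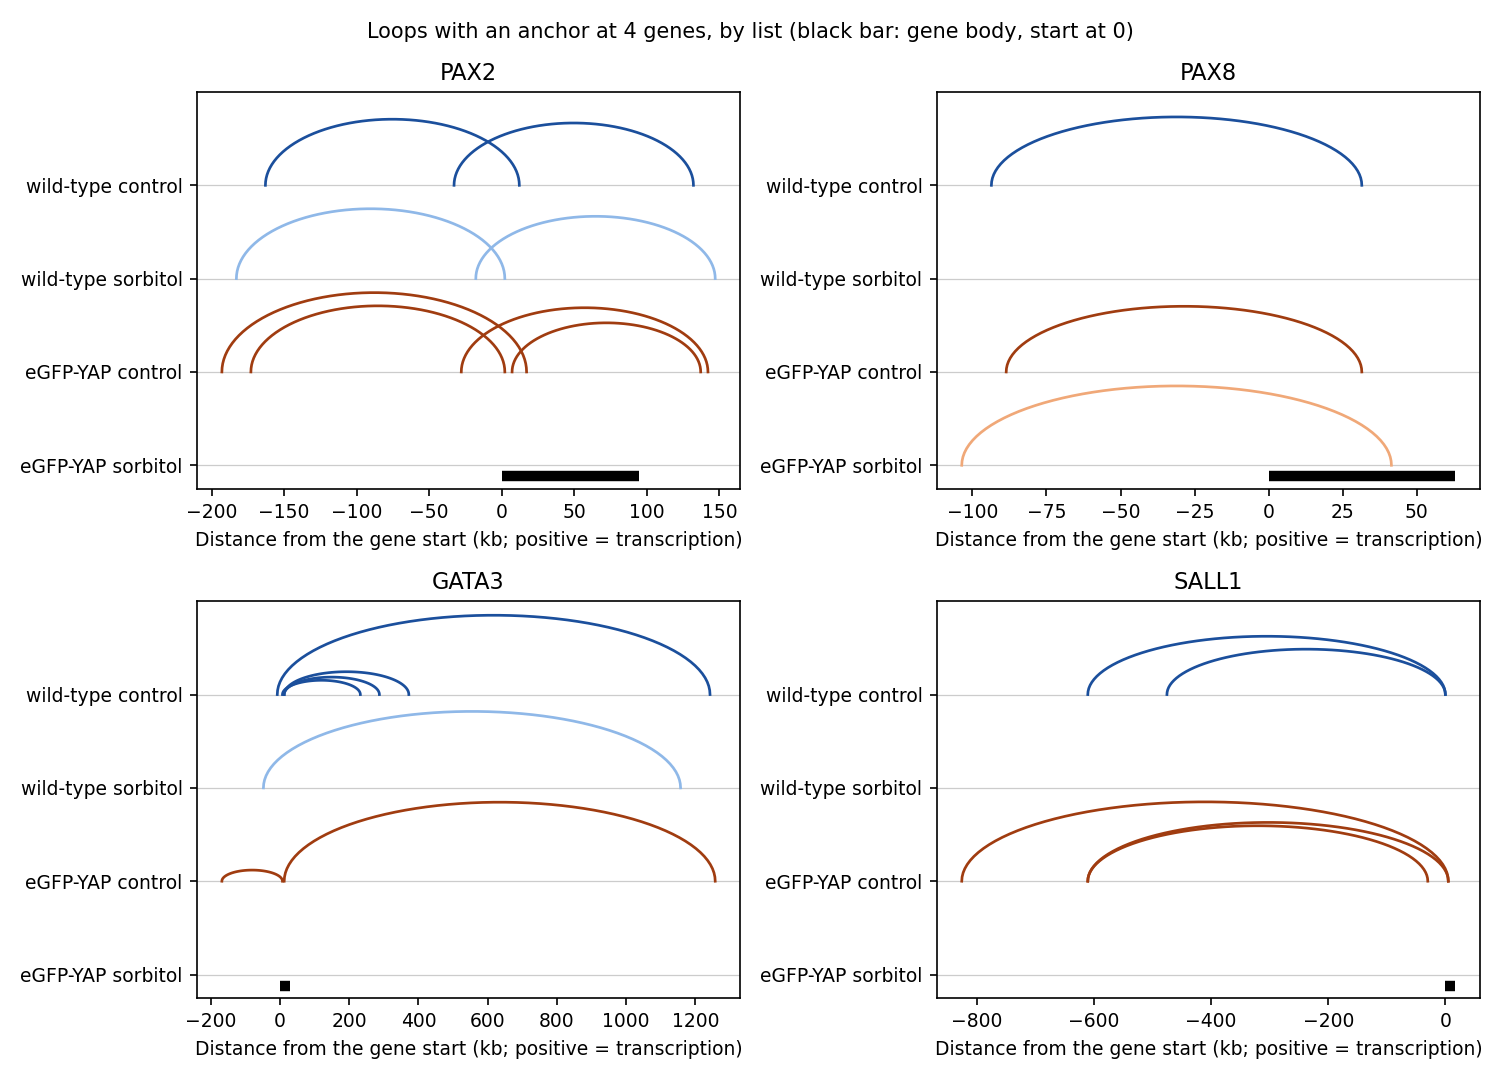
Loops with an anchor at PAX2, PAX8, GATA3 and SALL1, drawn as arcs between anchor centres for each list (rows), against distance from the gene start in kb (x axis, positive in the direction of transcription); arc height is proportional to span and the black bar is the gene body. PAX2 and PAX8 have loops of 120 to 210 kb, while GATA3 and SALL1 reach 1250 and 830 kb, and SALL1 has arcs in the control rows only.

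GATA3, a zinc-finger factor of the nephric duct that also directs T-cell fate, had 4 loops in wild-type control, 1 in wild-type sorbitol, 2 in eGFP-YAP control and 0 in eGFP-YAP sorbitol. It lies at chr10:8045378-8075198 on the plus strand (ENSG00000107485.18), with the nearest protein-coding start, that of TAF3, 227 kb away. The 3 members of 1 Mb or longer were all at GATA3, 1 in each list that had any. In wild-type control a 1250 kb loop ran from chr10:8035001-8040000 to LINC00709 (percentile 89.5). In eGFP-YAP control a 1245 kb loop ran from chr10:8055001-8060000, inside the gene, to chr10:9300001-9305000 (81.3), and in wild-type sorbitol a 1205 kb loop ran from chr10:7995001-8000000 to chr10:9200001-9205000 (57.8). Both anchors differed by more than 10 kb between any 2 of them, so they did not match. The other wild-type control loops ran from inside GATA3 over 225, 275 and 360 kb into the gene-poor region downstream, at percentiles 5.85, 38.1 and 53.9. In the opposite direction a 175 kb eGFP-YAP control loop joined GATA3 to TAF3, the gene of a TFIID subunit (50.6).

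Summed over the lists, GATA3 also had the most enclosing loops, 11 in wild-type control, 2 in wild-type sorbitol, 6 in eGFP-YAP control and 3 in eGFP-YAP sorbitol. Among the groups in 3 lists, the highest in score spanned 1775 to 1785 kb and stood at percentiles 96.2 in wild-type control, 99.7 in eGFP-YAP control and 98.1 in eGFP-YAP sorbitol. A group of at least 1430 kb stood at 95.8 in wild-type sorbitol, 98.5 in eGFP-YAP control and 93.7 in eGFP-YAP sorbitol. The eGFP-YAP sorbitol list, with 0 anchors at GATA3, thus still held loops around it.

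LHX1, a LIM-homeobox factor needed for the duct and for early tubules, had 0 loops in all 4 lists. The gene (ENSG00000273706.5) lies at chr17:36936785-36944612 on the plus strand, and the start of AATF, 12.1 kb away, shares its window. The nearest anchor was 110.7 kb from the LHX1 start in 3 lists and 344.3 kb in wild-type sorbitol. In those 3 lists the anchor belonged to a loop enclosing LHX1, from a site upstream, at -309.3 to -304.3 kb, to chr17:37045001-37050000 in AATF. The bins were identical in wild-type control (420 kb, percentile 75.9) and eGFP-YAP control (420 kb, percentile 87.8). In eGFP-YAP sorbitol the left anchor was the next bin, closer to LHX1 (415 kb, percentile 40.1). The motif matches shown for LHX1 lie in both anchors of the control loops and face each other. Enclosing loops at LHX1 numbered 1, 0, 5 and 2 in wild-type control, wild-type sorbitol, eGFP-YAP control and eGFP-YAP sorbitol.

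**Figure D4:**
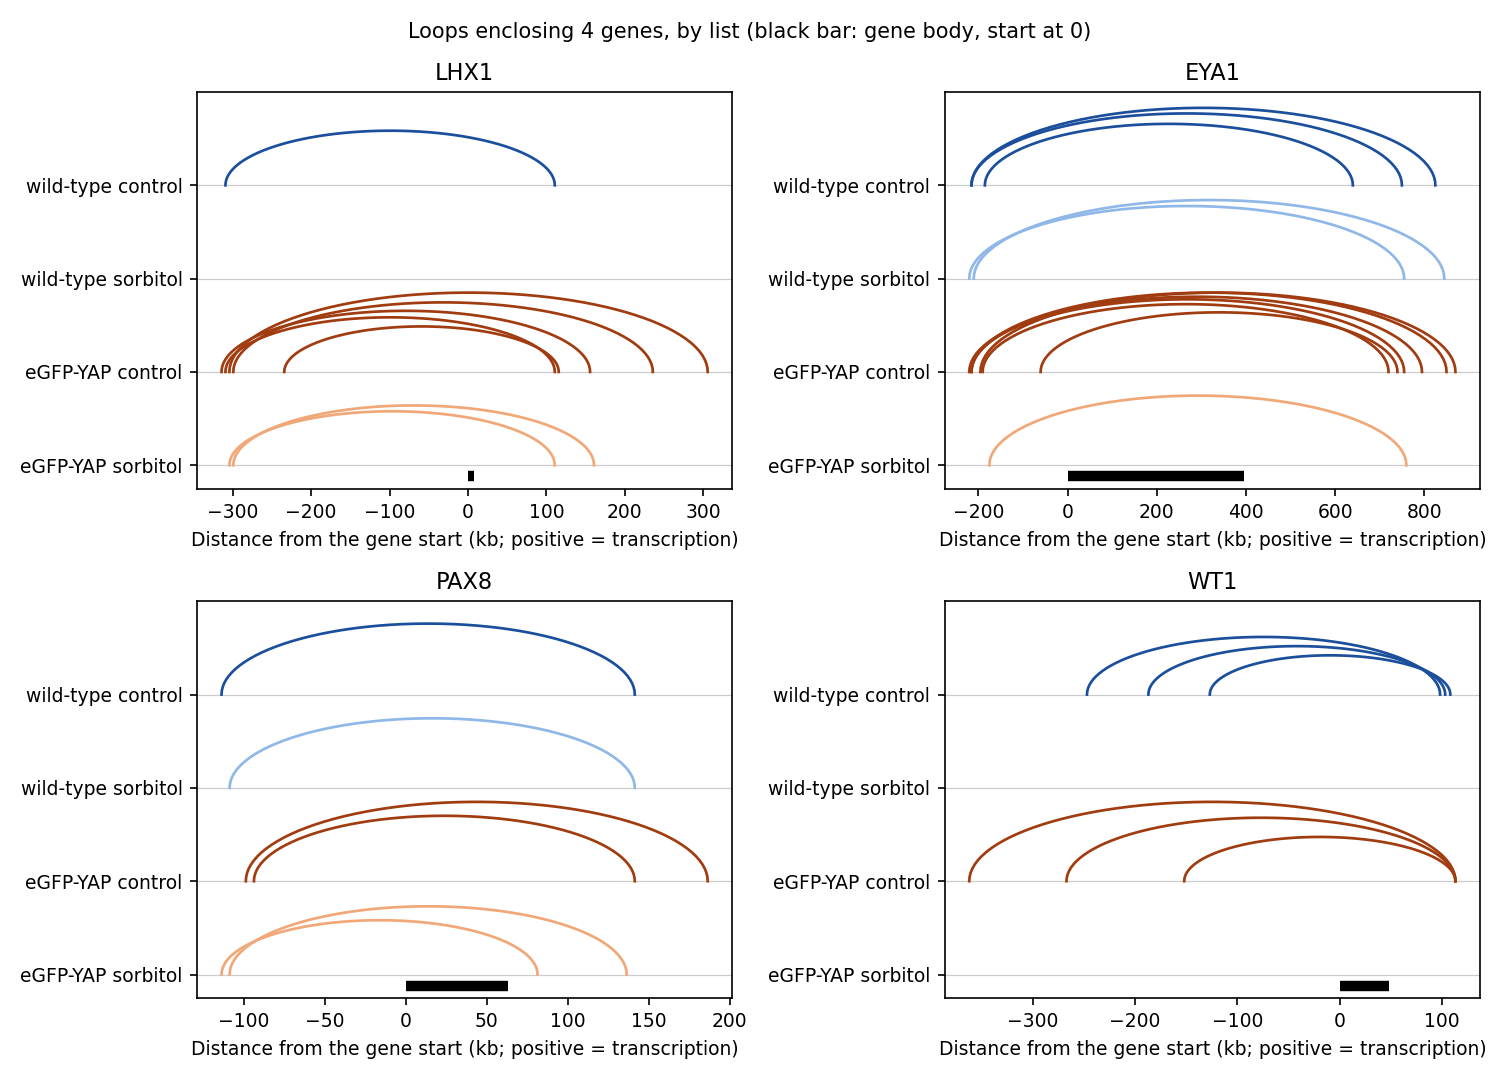
Loops that enclose LHX1, EYA1, PAX8 and WT1 with both anchors outside the gene's window, drawn as arcs for each list (rows) against distance from the gene start in kb (x axis, positive in the direction of transcription); the black bar is the gene body. LHX1 and WT1, with 0 loops at the gene, lie under 8 and 6 enclosing arcs, and wild-type sorbitol has none at either.

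Over the 8 genes, enclosing loops numbered 25, 8, 26 and 10 in wild-type control, wild-type sorbitol, eGFP-YAP control and eGFP-YAP sorbitol. SIX2 and SALL1 had 0 in every list. Enclosing loops were not counted for all protein-coding genes, so whether any of these counts is unusual is not known. With sorbitol, 2 of the 25 enclosing control loops of wild type were called again, 8% (2.22 to 25), beside 7.81% of the whole list, and 5 of the 26 of eGFP-YAP, 19.2% (8.51 to 37.9), beside 9.28%. Both whole-list shares lie inside these intervals.

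Span, partner genes and anchor motifs were then read for the members as a whole. Loops at the kidney regulators had median spans of 360 kb (interval 225 to 560) in wild-type control, 330 kb (165 to 1200) in wild-type sorbitol, 500 kb (210 to 615) in eGFP-YAP control and 325 kb (145 to 505) in eGFP-YAP sorbitol. The whole lists had medians of 240, 215, 260 and 230 kb, all inside these intervals. All members longer than 240 kb were at SIX2, SALL1 or GATA3, and every loop at PAX2, PAX8 and EYA1 spanned 240 kb or less. No partner anchor held the start of a protein-coding gene, 0 of 17, 0 of 6, 0 of 20 and 0 of 2 distinct partner anchors, which allows shares of up to 18.4%, 39.0%, 16.1% and 65.8% (upper Wilson bounds). Of all distinct anchors, 5.67%, 19.7%, 7.64% and 23.3% held one. The gene's own start lay in an anchor of 5 loops, and in 18 loops the anchor at the gene lay in its body, both of which the choice of members favours. The partner lay in the body of a protein-coding gene in 19 loops, among them the EYA1 loop, whose inner anchor lies in EYA1 itself.

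The CTCF core motif, read on both strands and allowing 1 mismatch, was present in 5 of 31 distinct anchors in wild-type control, 16.1% (7.09 to 32.6), and in 1 of 11 in wild-type sorbitol, 9.09% (1.62 to 37.7). It was present in 5 of 37 in eGFP-YAP control, 13.5% (5.91 to 28.0), and in 1 of 4 in eGFP-YAP sorbitol, 25% (4.56 to 69.9). All anchors of the lists gave 23.2%, 20.9%, 30.1% and 27.7%, and all 5 kb bins of the genome 8.69%. The whole-list value lies outside the interval in eGFP-YAP control and inside it in the other lists. The eGFP-YAP control share at the genes was 5.41% with no mismatch and 48.6% with anchors widened by 5 kb, settings for which no whole-list value was computed, so no difference is read from it. A match marks sequence and not occupancy, and its absence says only that these letters are not in the window.

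By score, loops at the kidney regulators were spread over the control lists and over a narrower range in the sorbitol lists. The sorbitol ranges rest on 6 and 2 loops against 17 and 22 in control. Fewer loops tend to give a narrower range, so no difference is read from it. The lowest, median and highest percentiles were 0.115, 53.9 and 98.0 in wild-type control and 10.0, 21.5 and 57.8 in wild-type sorbitol. In eGFP-YAP control they were 16.9, 44.8 and 98.6, and the 2 eGFP-YAP sorbitol loops stood at 81.1 and 89.9. The 4 members at percentile 90 or higher were the PAX8 loop and 2 SIX2 loops of wild-type control and the SIX2 to SRBD1 loop of eGFP-YAP control. The wild-type sorbitol loops reached at most 57.8, while both eGFP-YAP sorbitol loops stood above that value.

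**Figure D5:**
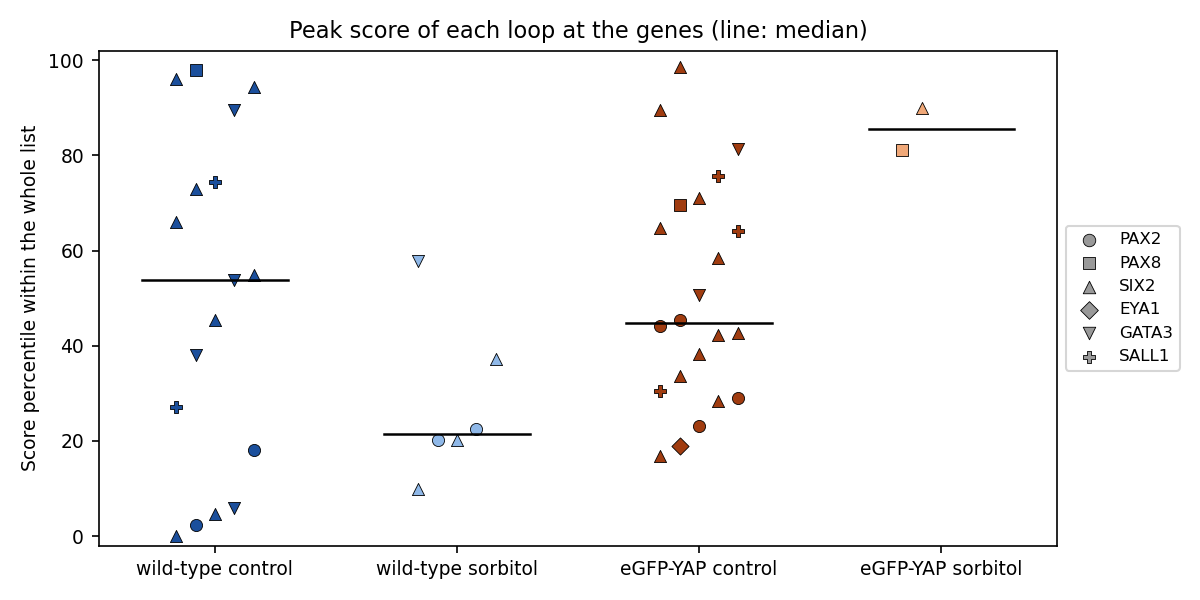
Score percentile of each loop within its whole list (y axis) for the 4 lists (x axis), with 1 symbol per loop, its shape naming the gene, and a line at the median. Wild-type sorbitol loops lie between 10.0 and 57.8, and the 2 eGFP-YAP sorbitol loops at 81.1 and 89.9.

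A list of 53 other genes known in kidney development gave the setting for these counts. At least 1 loop was present at 41 of them in wild-type control, 30 in wild-type sorbitol, 45 in eGFP-YAP control and 25 in eGFP-YAP sorbitol, and at 21 of them in both sorbitol lists. These counts lie near the shares of all protein-coding genes, 72.8%, 51.9%, 81.9% and 54.2% in the same order, so no trait of kidney genes is read from them. For both sorbitol lists together no share of all genes was computed. The 53 genes held 153, 79, 180 and 49 loops, with medians of 2, 1, 3 and 0 per gene. Only IRX1, IRX2 and SOX11, 3 of the 53, had 0 in all lists, beside 9.79% of all protein-coding genes. The genes named next were picked after their counts were seen. FOXC1, a forkhead factor of the mesoderm, was one of the genes whose loops were about as many with sorbitol, with 10, 13, 12 and 8 in the 4 lists. FOXC2 had 13, 4, 12 and 4, and TFAP2A had 13, 5, 10 and 0. IRX3 had 0, 1, 0 and 1, and NPHS1, the gene of the podocyte protein nephrin, had 0, 2, 0 and 0. These 2 genes thus had loops in sorbitol lists only. The share of all genes with that pattern was not computed, so nothing particular is read from it. Of the 8 regulators, SIX2 alone had a loop in both sorbitol lists.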

How the data were processed

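The authors deposited 4 loop lists, which per the file headers come from the SIP loop caller with 5 kb anchors. Per the labels' protocols, the Hi-C libraries were cut with MboI. The build is hg38, per the submitters' processing notes. Caller settings, aligner, map normalisation, depth and the replicates pooled in each list are not given in the sources used here. The deposited peak score has no fixed scale and was used to rank loops within a list. The caller's probability of enrichment, deposited as a fraction, was at least 0.900. Lists were assigned to the 4 groups (14 of 32 samples) by name, with 0 columns left over, and 18 samples were not used.

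Genes and starts came from GENCODE release 44, and sequences from hg38. The caller's loops were matched, joined and counted with Python 3.11.15, numpy 2.4.6, pandas 2.3.3 and SciPy 1.17.1, in scripts tested on simulated data, and drawn with matplotlib 3.10.9. Shares have Wilson, counts exact Poisson and ratios exact Clopper-Pearson 95% intervals. Intervals of medians run between ranked values of the spans, set by the binomial distribution. Each gene's groups were described by number of lists, then by score percentile, up to 4 per gene, plus the highest-scoring sorbitol-only and the longest. Partners were named by a protein-coding start in the anchor, else the gene around it, else the nearest start. The genes, lists and rules were chosen with earlier results of these data known, and the enclosing loops, the border at SIX2 and the loops named beyond the rule were added after the values were seen. Alternatives tried were windows of 25 and 100 kb, gene starts without bodies, anchor centres, stricter score or probability, merged neighbours, other matching distances, shortened control lists and other motif and anchor settings.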

Additional observations from a re-analysis of the deposited data

How the results depend on the processing

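Settings were varied 1 at a time, and 149 of 172 recomputed values stayed within their counting interval or, for counts, within 1.5 times. The upper 50% of each list by score left 9, 1 and 10 loops at the genes in wild-type control, wild-type sorbitol and eGFP-YAP control, 1 gene with a loop in wild-type sorbitol, a wild-type ratio of 0.111, 0% of wild-type control loops called again and 100% of wild-type sorbitol loops without a partner. A probability of at least 0.95 left 3 wild-type sorbitol loops, with 0% called again and 100% without a partner in that line. Matching at 0 kb gave 0% called again and 100% without a partner in both lines. Matching at 25 kb lowered the share without a partner to 33.3% (wild type) and 0% (eGFP-YAP) and raised the share called again to 23.5% and 13.6%. Whole-list shares were computed only for matching at 10 kb, so the shares at 0 and 25 kb cannot be set against them. The shortened control list gave 0% called again and a ratio of 0.857 in wild type, and 20% and 0.4 in eGFP-YAP. Here each control list was cut by score to the length of its sorbitol list. The whole lists are then equal in length, so these ratios cannot be set against the earlier whole-list ratios. A window of 25 kb left 12 eGFP-YAP control loops, and 100 kb raised eGFP-YAP sorbitol to 5. With no motif mismatch the motif share was 5.41% in eGFP-YAP control and 0% in eGFP-YAP sorbitol, and with anchors widened by 5 kb it was 48.6% in eGFP-YAP control. The cause was not tested beyond what each setting removes. Leaving out the 7 loops nearer to SIX3, chosen after seeing the data, gave ratios of 0.375 and 0.125. No paired analysis was possible because each condition has 1 list without replicates.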
